A study of Mus musculus with 20 samples.

Results

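In the early postnatal dentate gyrus, 583 glial cells carried transcripts of at least 2 of the genes Pla2g3, Serpinf1, Cidea, Nog and Myoc, a panel that was followed in the single-cell RNA-seq library of postnatal day 5 (P5) and in the older libraries. The cells were chosen by their own counts. A unique molecular identifier (UMI) marks 1 captured transcript. The P5 library had 13684 barcodes that reached 1000 UMIs and 500 detected genes and whose mitochondrial share did not pass 10%. Those kept had 3 or more UMIs summed over the 5 panel genes, 2 or more of the 5 genes detected, 10 or more UMIs of Apoe, at most 1 UMI of Pdgfra plus C1ql1 and at most 2 UMIs of Vtn. The members made up 4.26% of the P5 cells (exact 95% binomial interval 3.93% to 4.61%) and 583 of the 21832 cells kept at all ages. They were compared with 3274 P5 astrocytes, defined by 5 or more UMIs over Slc7a10, Hsd11b1, Gjb6, Aqp4 and Slc6a11 and at most 1 UMI of the panel.

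The study followed neural stem cells and their progeny with age in Nestin-EGFP mice, a reporter line in which the Nestin promoter drives EGFP. The P5, 12-week and 24-week groups are all untreated dentate gyri of this line, papain-dissociated and sorted for EGFP-positive, 7-AAD-negative cells against a gate drawn on wild-type tissue. Each age has 1 droplet scRNA-seq and 1 scATAC-seq library, and the number of animals behind each is not stated. The gate takes any cell with enough EGFP, so the sorted cells are not stem cells alone, and cultured Setd8-knockdown samples of the series were not used here. With 1 library per age no test across animals was possible, so every interval below covers counting error only.

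Astroglia of the young hippocampus recycle glutamate, hold potassium and water balance, and secrete matrix and signalling proteins. The panel joins proteins of different roles. Nog encodes noggin, a secreted protein that binds bone morphogenetic proteins (BMPs) and keeps them from their receptors, and it is known in the dentate gyrus for holding BMP signals around stem cells in check. Pla2g3 encodes a secreted phospholipase A2, which frees fatty acids from membrane phospholipids. Serpinf1 encodes pigment epithelium-derived factor, a secreted non-inhibitory serpin known for anti-angiogenic and neurotrophic effects. Cidea encodes a protein of lipid droplets, and Myoc encodes myocilin, a secreted olfactomedin-domain protein known from the eye.

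The bases before the starts of Serpinf1, Myoc and Msx2 are shown for the genes whose levels are described first below. Serpinf1 and Myoc are panel genes with an entry in the RefSeq promoter table (build GRCm38.p6, the build of the files), and Msx2 is the target gene of BMP signals with the largest ratio between members and astrocytes. Each run holds the 250 bases before the start, 5′ to 3′ on the strand of the gene. Capitals mark TATAAA, searched on both strands. They lie at chr11:75422624-75422873 (minus strand), chr1:162638900-162639149 (plus strand) and chr13:53472781-53473030 (minus strand).
Serpinf1: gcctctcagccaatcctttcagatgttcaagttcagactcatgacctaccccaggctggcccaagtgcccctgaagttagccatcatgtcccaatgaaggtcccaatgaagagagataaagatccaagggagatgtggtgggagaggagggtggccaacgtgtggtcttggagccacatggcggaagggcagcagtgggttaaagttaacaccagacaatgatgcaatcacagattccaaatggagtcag
Myoc: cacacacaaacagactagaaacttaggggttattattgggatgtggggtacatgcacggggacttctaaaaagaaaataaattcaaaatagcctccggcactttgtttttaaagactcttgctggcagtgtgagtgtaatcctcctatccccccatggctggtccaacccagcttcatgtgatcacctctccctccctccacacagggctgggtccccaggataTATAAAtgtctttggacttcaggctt
Msx2: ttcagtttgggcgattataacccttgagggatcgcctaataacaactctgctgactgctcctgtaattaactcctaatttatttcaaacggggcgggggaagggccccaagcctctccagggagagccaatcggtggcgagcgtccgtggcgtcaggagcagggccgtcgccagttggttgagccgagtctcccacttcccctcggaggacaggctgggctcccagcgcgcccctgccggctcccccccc
TATAAA stood once in the Myoc window and in neither of the others, against 12.4% of the 32851 windows in the table. GGCGCC, the letters of a GC-rich Smad element, stood in none of the 3 windows and in 9.59% of all. The GC content was 51.6% for Serpinf1, 46.8% for Myoc and 61.6% for Msx2, beside a median of 52.4% over all windows.

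The P5 library held 67543410 UMIs, and members were somewhat deeper than astrocytes, with a median of 6383 against 4944.5 UMIs per cell and 3829200 against 17711752 UMIs in all. Levels are therefore given as CPM, the UMIs of a gene scaled to 1000000 pooled UMIs. The 12-week and 24-week libraries were shallower, at a median of 2289 and 2178 UMIs per cell. Their matrices also listed barcodes below the lowest P5 depth, as described with the older libraries below. Libraries shared 98 barcodes (P5 and 12 weeks), 63 (P5 and 24 weeks) and 26 (12 and 24 weeks). Scrublet, a doublet caller, marked 752 P5 cells (5.50%), among them 21 members (3.60%) and 275 astrocytes (8.40%), and these stayed in unless stated. The median mitochondrial share was 5.36% of UMIs in members, 4.46% in astrocytes and 4.41% in the astrocytes held to the same conditions used below, and its part in the differences was not tested. The lowest P5 barcode had 1495 UMIs, so free RNA could not be measured there. In its place stand 674 neurons (10 or more UMIs of Stmn2, Tubb3 and Dcx, astrocyte sum and Pdgfra plus C1ql1 at most 1) as a type that should lack the panel, though limiting the astrocyte sum also leaves out neurons with more stray glial RNA.

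The values of the panel genes chose the members and are given as a description. Serpinf1 had 1705 UMIs in members, 445 CPM (95% Poisson interval 424 to 467), and was detected in 486 of 583 cells with up to 49 UMIs in a cell. Pla2g3 had 1496 UMIs, 391 CPM (371 to 411), in 496 cells. Nog had 484 UMIs, 126 CPM (115 to 138), in 329 cells. Myoc and Cidea were rarer, with 247 UMIs in 83 cells and 225 UMIs in 168 cells. A single cell held 43 of the 247 Myoc UMIs. Astrocytes, held to at most 1 panel UMI, had 22.1 CPM of Pla2g3, 16.1 of Nog, 8.69 of Serpinf1, 1.75 of Cidea and 0.903 of Myoc. With each cell thinned to 2000 UMIs, Pla2g3 was detected in 51.3% of members, 4.77% of astrocytes and 0.446% of neurons, at median depths of 6383, 4944.5 and 5358 UMIs before thinning (85.1%, 11.9% and 2.08% unthinned). Thinned shares for Nog were 25.5%, 4.26% and 0.446% in the same order. Both sets of cells were chosen by low panel or astrocyte sums, so these shares describe them and do not measure the background.

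**Figure D1:**
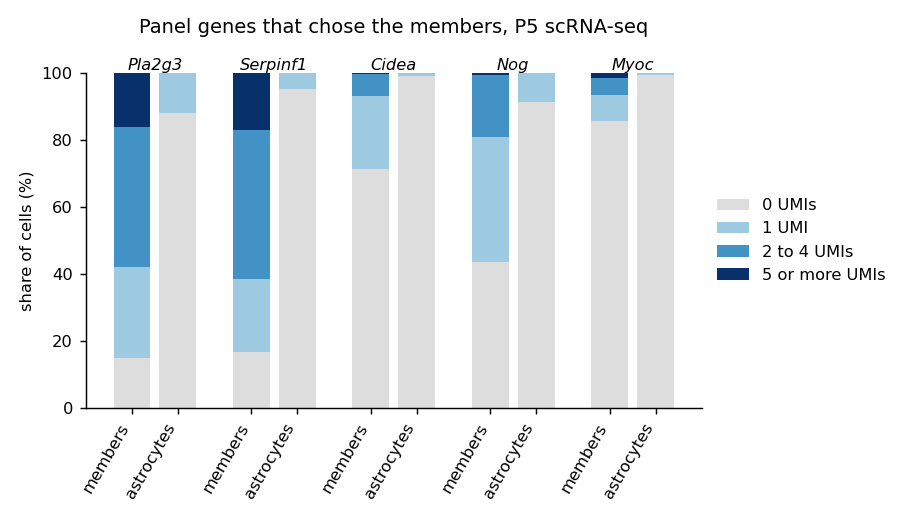
Share of cells (vertical axis, %) with 0, 1, 2 to 4, or 5 or more UMIs of each panel gene, for the 583 members and the 3274 astrocytes of P5. Pla2g3 and Serpinf1 were found in most members, Nog in 329, and Cidea and Myoc in 168 and 83, and astrocytes hold at most 1 UMI by their definition.

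Pairs of panel genes are required by the rule, so their counts only describe the members. Pla2g3 and Serpinf1 were both detected in 402 members, 81.0% of those with Pla2g3, beside 83.4% of all members with Serpinf1. Nog accompanied Pla2g3 in 265 members and Serpinf1 in 253. Of the 83 members with Myoc, 71 also had Serpinf1 and 59 had Pla2g3. Just 2 of the panel genes were detected in 277 members, 3 in 227, 4 in 68 and all 5 in 11. The panel sum had a median of 5 UMIs, quartiles of 4 and 9, and a highest value of 57.

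The first condition removed most cells: 847 had a panel sum of 3 or more, 700 of these had 2 or more of the genes, 698 the Apoe, 593 also at most 1 UMI of Pdgfra plus C1ql1, and 583 at most 2 of Vtn. At the edge, the 131 members with a panel sum of exactly 3 had 782 CPM of Gfap and 1169 CPM of Aqp4. The 202 cells just outside, with 2 UMIs from 2 panel genes, had 681 and 899.9 CPM, and the 124 cells with 3 or more UMIs from 1 panel gene had 577 and 1209 CPM. Id3 stood at 3064 CPM inside the threshold, 2577 in the first of these groups and 2883 in the second, and 49.6%, 27.7% and 46.8% of their cells lay in the cluster with most members, cluster 3, which is described below. The 104 cells left out for Pdgfra plus C1ql1 had 1188 CPM of Gfap, and 24.0% of them were called doublets. Of the 10 cells left out for Vtn, 70.0% were called doublets.

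The label of glia was set beside marker lists. All 20 genes of a general astroglial list were detected in members, with a summed level of 60906 CPM against 67988 in astrocytes and 6529.9 in neurons. Slc1a2, the main glutamate transporter of astrocytes, stood at 3024 CPM in members and 2982 in astrocytes, and Aldoc, a glycolytic enzyme of astrocytes, at 1402 and 1470.5 CPM. Of the 583 members, 495 (84.9%) also had an astrocyte sum of 5 or more, 65 had 2 to 4 and 23 had at most 1. The 15 neuronal markers summed to 689.7 CPM in members, 861 in astrocytes and 8972 in neurons. The 15 markers of oligodendrocyte precursor cells (OPCs) summed to 2899.8 CPM in members, 3659.7 in astrocytes and 8831 in OPCs. They summed to 3438 CPM in the astrocytes held to the members' other conditions. The 10 microglial markers summed to 16.7 CPM in members and in astrocytes. Neurons and OPCs were chosen by markers of their own and members by low Pdgfra plus C1ql1, so these contrasts are partly set by the choice. Markers of mural and endothelial cells summed to 166 CPM in members, to 437 in astrocytes and to 209 in the astrocytes held to the members' other conditions, which include Vtn.

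The astrocyte genes of the comparison rule were not all at the same level in members. Aqp4, the water channel of astrocytic endfeet, stood at 1600.3 CPM in members and 662 in astrocytes. Slc7a10, a transporter of small neutral amino acids, stood at 72.1 against 298 CPM, Gjb6, a gap junction protein, at 12.8 against 43.8, Hsd11b1, which regenerates active glucocorticoid, at 22.2 against 70.0, and the GABA transporter Slc6a11 at 325 against 648. Because these genes chose the astrocytes, their differences are partly set by the rule. Apoe, a lipid carrier that chose the members, had 13504 CPM in members and 15200.4 in astrocytes.

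Members lay close to each other when the genes of both rules were left out. The P5 cells formed 33 clusters on 2000 variable genes without any rule gene, and cluster 3, with 894 cells or 6.53% of the library, held 389 of the 583 members (66.7%) and 216 of the 3274 astrocytes (6.60%). Cluster 0, with 1693 of the astrocytes, held 79 members, cluster 17, a cycling cluster, 27, cluster 12 held 26 and cluster 4 held 19. In cluster 12, 41.8% of cells were called doublets. Of the 20 nearest neighbours of a member, 42.7% on average were members and 26.4% were astrocytes of the comparison. Around an astrocyte, 4.04% were members. Cluster 3 as a whole had 730.4 CPM of the panel, and the next of the 20 largest clusters, cluster 4, had 209. A cluster of 20 cells led by Col3a1, Slc6a13 and Cxcl12 had 404 CPM of Serpinf1 but 6.61 CPM each of Pla2g3, Cidea and Nog and no Myoc, so Serpinf1 alone also marked other cells.

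**Figure D2:**
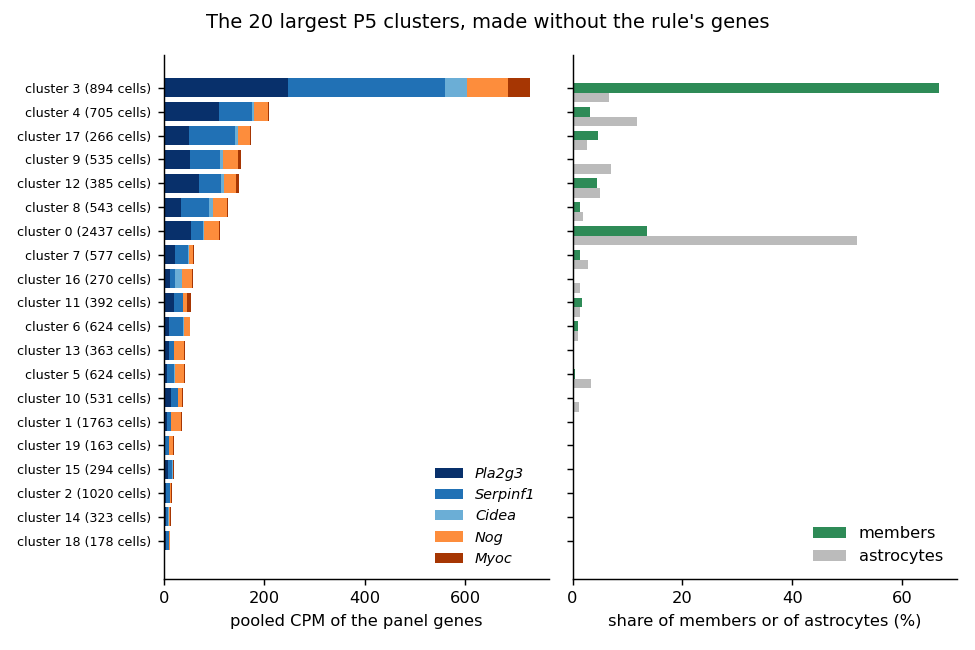
Left, pooled CPM of the 5 panel genes (horizontal axis, stacked) in the 20 largest P5 clusters made without the rule's genes; right, the share of all members and of all astrocytes (%) that each cluster holds. Cluster 3 has 730.4 CPM of the panel and 66.7% of the members, while cluster 0 holds most astrocytes.

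Across the 33 clusters, the genes whose log2(CPM + 1) followed the panel most closely were, by Pearson correlation, Lcat (0.85), Fgfr2 and Trim9 (both 0.82), Aldh1l1 and Hsdl2 (both 0.81), and Id3, Sparcl1, AI464131, Gja1 and Ttyh1 (all 0.80). These clusters share 1 library and its depth, so the values describe it. Of the 10, Id3 and Aldh1l1 were higher in cluster 3 than in any other cluster, Id3 at 3521 CPM against at most 1642 and Aldh1l1, a folate enzyme of astrocytes, at 147 against at most 102. Lcat, which esterifies cholesterol on lipoproteins, reached 203 CPM in cluster 3 and 238 in another cluster.

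Outside the rule's genes, Mylip, Islr, Nrp2, Hspb8, Fxyd6 and Selm were among the genes furthest above astrocytes in members, and Gabbr2, Paqr6, Sparc and Luzp2 among those furthest below. The same cells gave the rule and these levels, so the comparison is a description. A gene was counted as higher or lower when its pooled CPM differed at least 2-fold with 20 or more UMIs in the higher group. Of 13007 genes so tested, 146 (1.12%) were higher in members and 817 (6.28%) lower, and the median log2 ratio of all was -0.08. The 2 directions do not have the same floor, since 20 UMIs are 5.22 CPM in members and 1.13 CPM in the larger pool of astrocytes, and 721 of the lower genes had under 20 UMIs in members. The exact interval of the ratio lay wholly above 1 for all 146 higher genes and wholly below 1 for 501 of the 817 lower ones. Among the 12 genes furthest up by the near bound of that interval, Fxyd6, a regulator of the sodium pump, had 1431 CPM in members against 360.3 in astrocytes, 3.97-fold (3.83 to 4.12). Selm, a selenoprotein of the endoplasmic reticulum, had 1050.1 against 278 CPM, 3.78-fold (3.63 to 3.94). Both were detected widely, in 85.2% and 79.8% of members at 2000 UMIs per cell and in 43.0% and 39.0% of astrocytes.

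Further genes of the 12 were lower in level but further apart. Mylip, an E3 ubiquitin ligase that sends the LDL receptor to degradation, had 33.7 CPM in members and a ratio of 9.04 (6.67 to 12.4). Islr, a leucine-rich repeat protein, had 47.3 CPM and a ratio of 7.22 (5.69 to 9.19). Nrp2, a receptor for class 3 semaphorins, had 76.8 CPM and a ratio of 6.67 (5.56 to 8.01), and Hspb8, a small heat shock protein, had 126 CPM and a ratio of 5.34 (4.68 to 6.10). The others were Ptchd2 (5.51-fold), Prss23 (4.91-fold), Glycam1 (5.07-fold), the NMDA receptor subunit gene Grin3a (4.06-fold), Fam84a (4.04-fold) and Inpp5j (4.51-fold). In neurons Nrp2 stood at 19.6 CPM and Fxyd6 at 1155 CPM, while Grin3a, Mylip and Glycam1 were below 5 CPM there. Grin3a stood at 90.5 CPM in OPCs. In the 23 members with an astrocyte sum of at most 1, Grin3a and Fam84a (both a log2 ratio of 0.40) and Glycam1 (0.62) fell short of 2-fold against astrocytes. The pool of these 23 cells is small, and the counting error of these ratios is not given. Hspb8 also reached 104 CPM in 173 Hopx-positive cells (2 or more UMIs of Hopx with astrocyte sum, panel sum and Pdgfra plus C1ql1 at most 1 each), against 23.7 in astrocytes.

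Sparc, a matricellular glycoprotein, stood at 139 CPM in members and 470.1 in astrocytes, a ratio of 0.295 (0.270 to 0.322), and was detected in 20.2% against 51.9% of thinned cells. Luzp2 stood at 67.9 CPM with a ratio of 0.292 (0.256 to 0.331). Gabbr2, a subunit of the GABA-B receptor, had 18 UMIs in members and a ratio of 0.145 (0.0855 to 0.232), and Paqr6, of the progestin and adipoQ receptor family, a ratio of 0.20. Pmepa1, which dampens TGF-β signals, Heyl, a Notch effector, and Trim47 had ratios of 0.274, 0.215 and 0.233. Tmem212 and Ccdc153, genes of ciliated ependymal cells, had ratios of 0.205 and 0.227, and were detected in 1.93% and 2.46% of thinned astrocytes. Cluster 16, led by these 2 genes, held 44 of the astrocytes and 1 member. The part of such cells in these ratios and in the ependymal counts below was not tested. Higd1b, Igfbp7 and Cd248, genes of mural cells, had ratios of 0.275, 0.294 and 0.169.

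For some of the lower genes the ratio moved once astrocytes had to meet the members' other conditions. Against the 2821 astrocytes that also passed the members' Apoe, Pdgfra plus C1ql1 and Vtn conditions, 152 of 12536 genes (1.21%) were higher and 512 (4.08%) lower. Of the 146 higher genes 137 were higher in this comparison too, but of the 817 lower genes 475. The ratio of Higd1b came to 0.922 (0.725 to 1.16) and that of Igfbp7 to 0.691 (0.542 to 0.871). Cd248 came to 0.430, with an interval that reached 1. Sparc (0.308), Luzp2 (0.292), Gabbr2 (0.15), Paqr6 (0.187), Ccdc153 (0.216) and Tmem212 (0.206) kept ratios far below 1. All 12 higher genes kept ratios of at least 3.81. Among markers of ependyma and choroid plexus 5 of 9 tested were lower in both comparisons, with Dynlrb2, a dynein light chain of cilia, at 9.14 against 26.2 CPM, and among OPC markers 4 of 14 against all astrocytes and none against those held to the same conditions. Of 12 mural and endothelial markers tested, 8 were lower in members against all astrocytes and 2 in that comparison. These counts stand beside 6.28% of all genes lower against all astrocytes and 4.08% against those held to the same conditions. In these astrocytes 4.75% of cells were called doublets.

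**Figure D3:**
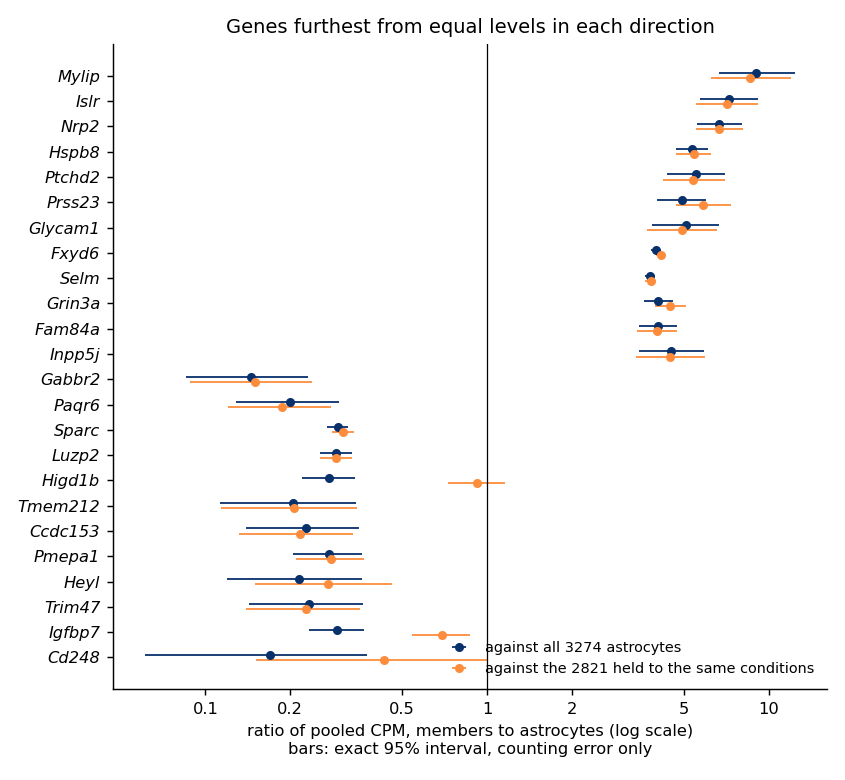
Ratio of pooled CPM in members to that in astrocytes (horizontal axis, log scale) with exact 95% intervals, for the 12 genes furthest up and the 12 furthest down, against all 3274 astrocytes and against the 2821 held to the members' other conditions. The higher genes keep their ratio in both, while Higd1b moves from 0.275 to 0.922 and Igfbp7 from 0.294 to 0.691.

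In the BMP pathway, where Nog itself chose the members, Bmpr1a, Smad6, Smad7, Smad9, Id1, Id3, Msx2 and Atoh8 were at least 2-fold higher in members, and Bmp7 and Sostdc1 were lower. All gene lists were chosen with earlier results of these data known, so their counts are a description and not a test. BMPs are secreted ligands that assemble type 1 and type 2 receptors, whose kinases activate Smad1, Smad5 and Smad9, and these turn on Id genes and the feedback inhibitors Smad6 and Smad7. Of 5 ligands tested none was higher (1.12% of all genes were) and Bmp7 was lower (6.28% were), at 14.1 CPM in members and 29.7 in astrocytes (ratio 0.475, 0.352 to 0.629), and its ratio against the astrocytes held to the same conditions was 0.518. Bmp4 had 6 UMIs in all members, Bmp2 had 3 and Bmp6 had 1. Among 9 antagonists and binding proteins other than Nog, Chrdl1, a secreted BMP binder of astrocytes, was higher at 56.4 against 24.6 CPM (2.30-fold, 1.94 to 2.71). Sostdc1 was lower, with 3 UMIs in members (0.783 CPM) and 56 in the larger astrocyte pool. Bmper stood at 27.9 against 16.6 CPM, a ratio of 1.68 that missed 2-fold.

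Of 13 receptors and Smads tested, 4 were higher (against 1.12% of all genes) and none lower (against 6.28%). Bmpr1a, a type 1 receptor, stood at 174 CPM in members and 78.3 in astrocytes, 2.22-fold (2.02 to 2.44). Smad6 stood at 25.9 against 4.97 CPM, 5.20-fold (3.87 to 7.02), Smad7 at 13.8 against 5.93, 2.33-fold, and Smad9 at 8.10 against 2.31, 3.50-fold. The signal carriers Smad1, Smad4 and Smad5 differed little, with ratios of 0.907, 1.26 and 1.03. The type 2 receptor Bmpr2 had a ratio of 1.58 and Bmpr1b of 1.62.

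Of 9 target genes tested, 4 were higher (against 1.12% of all genes) and none lower (against 6.28%), and the median log2 ratio was 0.89 over the list and -0.08 over all genes. Id3, an inhibitor of basic helix-loop-helix factors, stood at 3236 CPM in members and 1404 in astrocytes, 2.30-fold (2.26 to 2.36). Id1 stood at 502 against 183 CPM, 2.75-fold (2.60 to 2.91). Msx2, a homeobox factor, had 96 UMIs in members and 29 in the larger astrocyte pool, 25.1 against 1.64 CPM (15.3-fold, 10.0 to 24.1), and Atoh8 stood at 17.0 against 3.73 CPM (4.56-fold). Id2 (1.49), Id4 (1.44), Msx1 (1.85), Hey1 (1.39) and Bambi (1.32) had ratios between 1 and 2. Against the astrocytes held to the same conditions the counts were again 4 of 9 targets and 4 of 13 receptors and Smads, beside 1.21% of all genes higher.

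**Figure D4:**
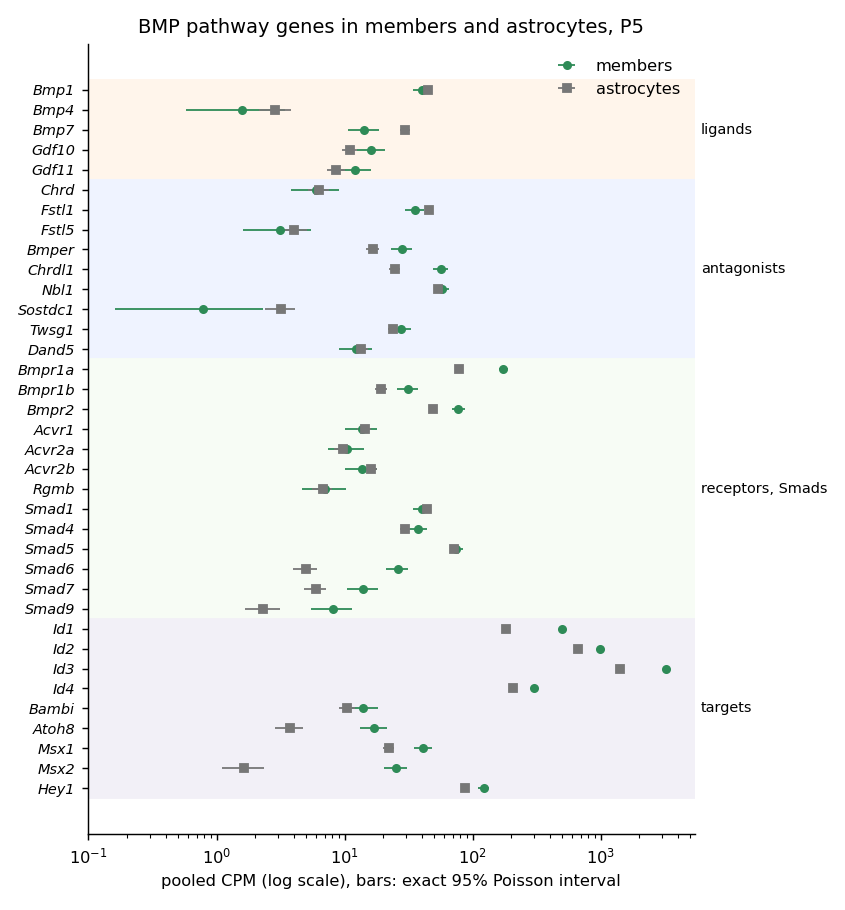
Pooled CPM (log scale, with exact 95% Poisson intervals) of BMP ligands, antagonists, receptors and Smads, and targets with 20 or more UMIs in members or in astrocytes, without Nog, which chose the members. Id1, Id3, Msx2, Atoh8, Smad6, Smad7, Smad9, Bmpr1a and Chrdl1 lie at least 2-fold to the right in members, and Bmp7 and Sostdc1 to the left.

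List counts below stand against 1.12% of all genes higher and 6.28% lower, as a description, since these lists too were chosen with earlier results known. Among relatives of the other panel genes, none of 7 phospholipases A2 and lysophospholipases tested and none of 9 serpins passed 2-fold, and Pla2g7, which hydrolyses platelet-activating factor, stood at 547 CPM in members and 621 in astrocytes. Of 15 genes of lipid droplets and triglyceride turnover none was higher and 1 lower, with Fabp5, a fatty acid binding protein, at 5663 against 3203 CPM (1.77-fold, 1.74 to 1.80) and Plin2, a droplet coat protein, at 18.8 against 20.9. Of 11 lipid efflux genes 1 was lower, like the lipid droplet count near the 6.28% of all genes, namely Abcg1 with 5 UMIs in members and a ratio of 0.678 against the astrocytes held to the same conditions, and Lcat had 184 against 98.1 CPM (1.87-fold). None of 10 olfactomedin family genes passed.

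Structural and matrix genes were among the abundant genes that differed. Gfap, the intermediate filament of mature and reactive astrocytes and of stem cells, stood at 1172 CPM in members and 375 in astrocytes, 3.13-fold (3.01 to 3.25), and was the 1 gene of 20 general astroglial genes that was higher. Mfge8, a secreted phagocytosis bridge, was the 1 that was lower, at 784 against 1599.7 CPM. Against 1.12% of all genes higher and 6.28% lower, in the matrix list 2 of 23 genes were higher, Ncan (neurocan, 4504 against 1985 CPM, 2.27-fold) and Tnc (tenascin C, 451 against 218, 2.07-fold), and 3 were lower, Sparc, Col4a2 and Lamb1. Against the astrocytes held to the same conditions Col4a2 had a ratio of 0.805.

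A list of genes known from olfactory ensheathing and pial glia had 4 of 10 tested genes higher, against 1.12% of all genes, namely Gfap, Id3, Fbxo2 and the neuropeptide gene Npy. Id3 and Gfap are also in the lists above. Fbxo2, a ubiquitin ligase subunit that recognises glycoproteins, stood at 384 against 124 CPM (3.09-fold), and Npy at 33.7 against 9.49 (3.55-fold). Fabp7, the most abundant gene of the list, stood at 13332 against 10397 CPM, while Frzb (0.843) and Sox10 (0.573), defining genes of ensheathing glia, were not higher and Itih3 was lower (0.297). Of 6 fibroblast genes tested 1 was higher, Islr, and 1 lower, Col3a1, at 1.31 against 2.88 CPM and with a ratio of 1.12 against the astrocytes held to the same conditions. Col1a2 had 7.05 against 7.51 CPM.

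In the Wnt list, 2 of 15 genes were higher, against 1.12% of all genes, and 1 was lower, a share near the 6.28% of all genes. Rspo1, a secreted amplifier of Wnt signals, stood at 35.0 against 11.5 CPM (3.04-fold, 2.42 to 3.8) and Lef1, a nuclear Wnt effector, at 26.1 against 10.0 (2.60-fold), while Axin2, a common target, stood at 26.4 against 24.0. Of 9 IGF genes tested 1 was higher and 2 lower, Igf2 and Igfbp7, against 1.12% and 6.28% of all genes, and neither was lower against the astrocytes held to the same conditions. Igfbp5 was the higher one, at 146 against 44.6 CPM (3.27-fold, 2.93 to 3.65), while Igfbp2 had 499.6 against 925. In the Notch list none of 14 was higher and 2 were lower, against 6.28% of all genes, Heyl and Nrarp (209 against 432 CPM), while Hes5 was at 948 and 955. In the Hedgehog list 2 of 10 were lower, against 6.28% of all genes, Gli1 with 6 UMIs in members and Hhip, an inhibitor of Hedgehog ligands, with 1. None of 11 Sox and Nfi factors and none of 15 transport genes passed 2-fold. Of 14 immediate early and stress genes tested, which respond to dissociation, 1 was higher and 1 lower, against 1.12% and 6.28% of all genes. Junb was higher at 89.6 against 39.2 CPM, Hspa1a, a heat shock chaperone gene, was lower with 3 UMIs in members and 51 in the larger astrocyte pool (ratio 0.272), and Fos had 455 against 274 (1.66-fold). Their part in the other differences was not tested.

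Of 20 radial glia and stem cell genes, Tnc was higher and Lpar1 lower, the latter with 12 UMIs in members. Hopx, a homeodomain protein of quiescent stem cells, stood at 151 against 79.7 CPM (1.89-fold, 1.72 to 2.09), Thrsp at 145 against 231 and Nes at 19.8 against 34.7. None of 20 cell cycle genes passed 2-fold. At 2000 UMIs per cell, 8.20% of members (exact binomial interval 6.09% to 10.8%) and 7.54% of astrocytes (6.65% to 8.52%) had 2 or more UMIs over 8 cycle genes, against 21.3% of OPCs, and the unthinned shares with 5 or more UMIs were 6.35%, 5.86% and 14.2%. With the cycling cells left out of both groups, 147 genes were higher and 786 lower.

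Levels of several genes followed the panel sum in steps on both sides of the threshold. Among the P5 cells with an astrocyte sum of 5 or more that passed the other conditions, 2069 had no panel UMI and 116 had 10 or more. The panel sum also chose the members, and the cells with 0 or 1 panel UMI are the astrocytes held to the same conditions. The steps therefore describe that contrast again and do not test it. Fxyd6 went from 319 CPM at 0 panel UMIs over 412 at 1, 760 at 2 and 996 at 3 to 1633 at 10 or more. Id3 went from 1322 to 3499 CPM, Id1 from 168 to 532, and Gfap from 356 to 1927. In the other direction Luzp2 went from 245 to 41.8 CPM and Sparc from 459 to 98.8. Slc7a10 went from 335 to 37.2 CPM and Aqp4 from 653 to 2066, but both belong to the astrocyte sum that chose these cells, so their course is partly set by that choice. Slc1a3, the glial glutamate transporter, stayed nearer, at 3495 and 2653 CPM. Median depth rose from 4632 to 6928 UMIs over the same groups. After thinning to 2000 UMIs the end values for Fxyd6 were 303 and 1716 CPM, for Id1 151 and 603, and for Gfap 371 and 1931.

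**Figure D5:**
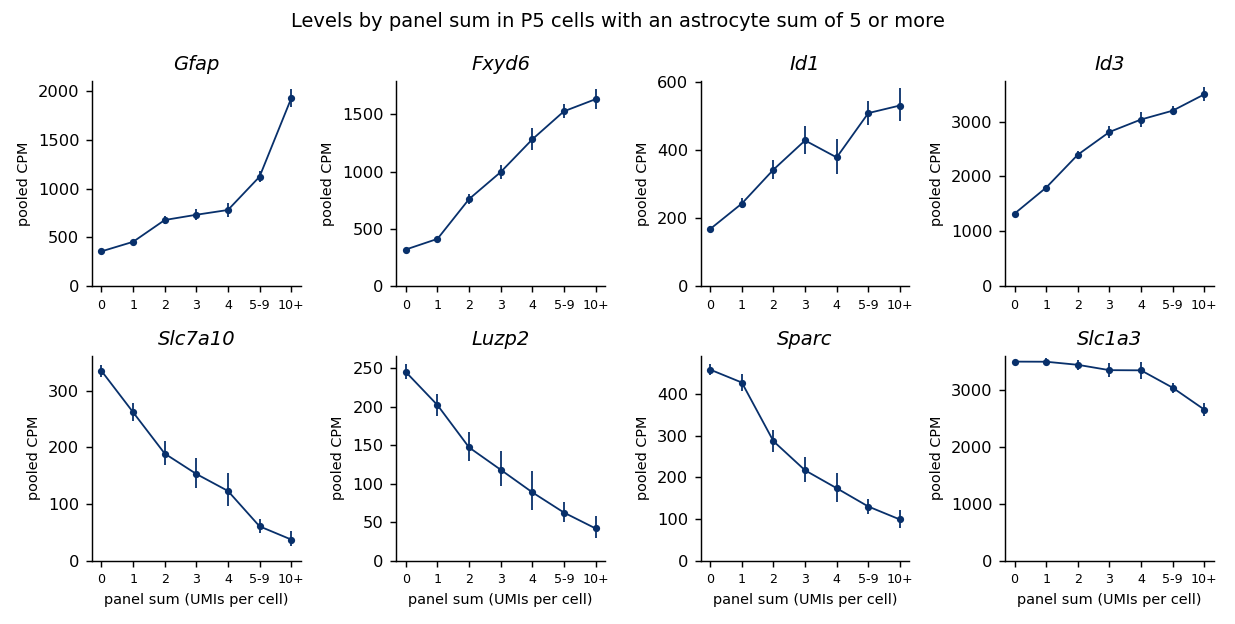
Pooled CPM (vertical axis, exact 95% Poisson intervals) of 8 genes by the number of panel UMIs per cell (horizontal axis), in P5 cells with an astrocyte sum of 5 or more that meet the members' Apoe, Pdgfra plus C1ql1 and Vtn conditions. Gfap, Fxyd6 and Id3 are higher at every step of the panel sum, Id1 dips between 3 and 4 UMIs, and Luzp2, Sparc and Slc7a10 are lower at every step, Slc7a10 being a gene of the astrocyte sum that chose these cells.

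Members were split by each panel gene and by cluster, and the splits were not ranked. The splits here were described after their values were seen. In each split by a panel gene, members without it had to reach the panel sum through the other 4 genes. Differences in other genes, Gfap and Igfbp5 among them, can therefore also follow from the rule, and this was not tested. The clusters were built on variable genes of these same cells, so differences by cluster are partly set by the clustering. Members in cluster 3 had 1476 CPM of Gfap, against 569.9 in the 194 members of other clusters (2.59-fold, 2.39 to 2.81), and 185 against 67.8 CPM of Igfbp5. Top2a, a topoisomerase of dividing cells, stood at 16.5 CPM in cluster 3 members and 118 in the others. The 83 members with Myoc had 2463 CPM of Gfap and 372 of Igfbp5, against 943 and 106 in the 500 without, and also more Tppp3 (65.8 against 9.53 CPM), Mia (65.8 against 14.5) and the opioid precursor gene Pdyn (154 against 62.4). Their Pla2g3 stood at 216 against 422 CPM, a difference that the rule can set, since members without Myoc had to reach the panel sum through the other 4 genes. Their Id3 stood at 3458 against 3197 CPM. The 496 members with Pla2g3 had less Gfap (1104 against 1573 CPM, ratio 0.702, 0.652 to 0.757) and less Igfbp5 (128 against 254 CPM) than the 87 without, and more Meg3, a long non-coding RNA, at 44.6 against 3.61 CPM (12.4-fold, 3.36 to 103, with 2 UMIs in those without). Members with Cidea had 1791 CPM of Gfap against 907 without, and less of the cell cycle genes Hist1h2ap (32.2 against 147 CPM), Top2a (24.4 against 61.6) and Mki67 (10.4 against 28.7). Members without Serpinf1, 97 in number, had more Tac2 (109 against 22.5 CPM), Basp1 (213 against 88.9) and Pcp4 (408 against 207) than the 486 with it. Tac2 is among the leading genes of the neuron-marked clusters 14 and 19, and Mfap4, another leading gene of cluster 14, stood at 72.4 CPM in members without Serpinf1 and 25.0 in those with it. The part of neuronal RNA in this split was not tested. Members with Nog had more of the cell cycle genes Hist1h2ap (146 against 63.3 CPM, 2.31-fold, 1.84 to 2.93) and Top2a (60.5 against 35.5 CPM, 1.70-fold, 1.24 to 2.37) than those without. Mki67, a further cycle gene, was close in this split, at 24.6 against 21.3 CPM (1.15-fold, 0.736 to 1.83). With Myoc, Hist1h2ap was lower (29.4 against 128 CPM) and Top2a was close (53.6 against 49.8). With Nog detected or not, Gfap (1154 and 1199 CPM) and Id3 (3178 and 3322 CPM) were close.

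The 505 cells of cluster 3 that were not members were near members in some genes and between members and astrocytes in others. Among the 505 are the 216 astrocytes of cluster 3, which also belong to the 3274 astrocytes, so these groups share cells. Clusters join cells with like levels of variable genes, so the nearness to members is partly set by the clustering. These 505 cells had 1175 CPM of Gfap, 3443 of Id3 and 511 of Id1, beside 1172, 3236 and 502 CPM in members. Fxyd6 stood at 1113 against 1431 CPM, Mylip at 16.9 against 33.7, Islr at 24.8 against 47.3, Nrp2 at 41.0 against 76.8 and Prss23 at 28.6 against 54.3, all above the levels of astrocytes. Their panel levels, 97.5 CPM for Pla2g3, 147 for Serpinf1 and 37.2 for Nog, lay between those of astrocytes and members, an order that the rule sets. Msx2 stood at 13.8 CPM, against 25.1 in members and 1.64 in astrocytes. A median of 5673 UMIs per cell lay below that of members.

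Both sexes held members. Xist without Y-linked UMIs was found in 133 members (22.8%) and 659 astrocytes (20.1%), Y-linked UMIs without Xist in 209 (35.8%) and 1167 (35.6%), and both in 49 members. Within the cells with Xist only and within those with Y-linked UMIs only, all 12 higher genes kept ratios above 2 with intervals above 1, and all 12 lower genes kept intervals below 1. Smad6 had ratios of 4.03 and 5.58, Msx2 of 19.4 and 16.3, and Gfap of 2.78 and 3.36 in the same order. Bmpr1a, at 1.75 and 2.37, Tnc, at 1.98 and 2.05, and Junb, at 1.36 and 2.45, reached 2-fold in the cells with Y-linked UMIs and missed it in those with Xist and these differences were not tested.

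The older libraries held almost no such cells. The same rule found 2 of 5351 cells at 12 weeks (0.0374%, exact binomial interval 0.00453% to 0.135%) and 1 of 2797 at 24 weeks (0.0358%, 0.000905% to 0.199%). Neither 12-week cell had Pla2g3 or Serpinf1, and they passed through Myoc with Cidea or Nog. The 24-week cell had 2 UMIs of Serpinf1 and 1 of Cidea. Vtn, which the rule limits to 2 UMIs, was detected in 95.3% and 98.7% of all cells at 12 and 24 weeks and in 10.9% at P5, and without the Vtn condition the rule found 3 cells at each later age. These libraries are also shallower, and thinning the P5 cells to 2000 UMIs, below both later medians, took the number found there from 583 to 200. The part of depth in the later counts was not tested, and with 1 library per age, age and library cannot be told apart. The count matrices also differ in the barcodes they list. That of P5 held 14129 barcodes, the lowest with 1495 UMIs. Those of 12 and 24 weeks each listed 737280, and the lowest with any count had 1 UMI. The barcode limits could therefore keep later barcodes below the lowest P5 depth. The part of such barcodes in the later cell totals, median depths, Vtn shares and counts of members was not tested. Vtn stood at 6940 and 12792 CPM over all cells at 12 and 24 weeks against 146 at P5, and at 1290.3 and 1539 CPM in the later cells with an astrocyte sum of 5 or more. The share of free RNA in these values was not measured. Fewer cells of this kind in the sort and less RNA per cell cannot be told apart from the totals. Among cells with an astrocyte sum of 5 or more, which the panel does not define, the panel stood at 257 CPM at P5 (4304 cells), 26.9 at 12 weeks (304 cells, 33 UMIs) and 50.5 at 24 weeks (119 cells, 21 UMIs), with 11 of the 21 UMIs from Myoc. Myoc alone stood at 13.2 CPM at P5, 4.89 at 12 weeks and 26.5 at 24 weeks (13.2 to 47.3, 11 UMIs in 2 cells). Pla2g3 had 2392 UMIs, 96.9 CPM, at P5 and 1 UMI at each later age. In the same cells Gfap stood at 551, 878 and 912 CPM and Id3 at 1798, 183 and 296 CPM, so Gfap was higher at the later ages while Id3 and the panel sum were lower.

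Chromatin at the starts of the panel genes was read from the scATAC-seq libraries, which the rule did not use but which pool all sorted cells. The window ran from 250 bases before to 50 after each start, and values are counts in overlapping peaks, scaled to 1000000 counts of the library. Peaks were called per library, so a value also depends on how wide that library's peak is. The part of peak width in differences between ages was not tested. The start of Nog had 76.4 at P5, 16.9 at 12 weeks and 13.0 at 24 weeks, and that of Pla2g3 8.60, 3.08 and 1.2. Myoc went from 4.70 over 3.33 to 1.70, while Cidea stood at 10.5, 12.9 and 13.7. No peak overlapped the start of Serpinf1 at any age. Of P5 barcodes with over 3000 and under 100000 counts, 52.3% had a count at Nog and 9.71% at Pla2g3, beside 4.26% of P5 cells that were members in the RNA library. The start of the pericyte gene Rgs5 had 7.96, 131 and 181 at the 3 ages, and its part in the difference at Nog and Pla2g3 was not tested. Id1 stood at 65.3, 91.6 and 108 and Id3 at 107, 119 and 142 in this readout. Their RNA over all cells was lower at both later ages, at 177, 88.3 and 148 CPM for Id1 and 1069, 307 and 469 CPM for Id3.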

How the data were processed

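Single-cell count matrices of UMIs per gene and cell were deposited by the authors for 1 scRNA-seq library per age, with reads mapped to mm10 in Cell Ranger 2.2.0 (Seurat 4.1.0 is also named in the submitters' processing notes). Counts in peaks called per library were deposited by the authors for scATAC-seq (matrix header software version 1.2.0). Raw counts are used throughout. Members and gene lists were chosen with earlier results of these data known. Counts were pooled over cells as CPM with exact Poisson intervals, ratios with exact conditional binomial intervals and shares with exact binomial intervals, all at 95%. No model, p-value or test was used, since each age is 1 library. Named genes were all genes of the rules, the 12 genes in each direction with the largest ratio by the interval bound nearest 1 (at least 100 UMIs in the higher group, without rule, mitochondrial, ribosomal protein, Y-linked genes and Xist), 2 to 4 examples per list and the 10 genes most correlated with the panel over clusters. Other genes named were chosen after their values were seen. Of 14 genes looked up, 10 had a RefSeq promoter. Doublets came from scrublet in scanpy 1.11.5, and Leiden clusters (leidenalg 0.10.2) were built on 30 components and 20 neighbours at resolution 1. Gene starts came from the GENCODE annotation of GRCm38, and 65 gene symbols listed more than once were read from their first entry. Thinning left 573 members, 3168 astrocytes and 672 neurons with 2000 UMIs. The bulk samples of cultured cells were left out.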

Additional observations from a re-analysis of the deposited data

How the results depend on the processing

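Changing the rule moved the number of P5 members from 583 to 785 with a panel sum of at least 2, 362 with at least 5, 306 with 3 or more panel genes, 687 with no Pdgfra plus C1ql1 condition, 239 with at most 5% mitochondrial UMIs, 200 after thinning to 2000 UMIs, and 306, 311 and 465 without Pla2g3, Serpinf1 and Nog. Doublet removal (562), leaving out Cidea (544) or Myoc (564), and dropping the Apoe (584) or Vtn (593) condition kept it within its counting interval. The mitochondrial limit, thinning and doublet removal also left fewer P5 cells in all, so for these the share of the cells left was compared.

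The 146 higher and 817 lower genes became 93 and 420 with at least 50 UMIs, 1092 and 3519 with no minimum, 350 and 1707 at 1.5-fold, and 52 and 361 at 3-fold. Lower genes numbered 416 with an astrocyte sum of at least 10 and 512 against the astrocytes held to the same conditions. The 23 members with an astrocyte sum of at most 1 gave 40 and 4454, and cells with Xist only gave 89 higher genes. In a pool of 23 cells a gene without any UMI is counted as lower, which limits what the 4454 mean. Other comparison cells gave 983 and 439 (Hopx cells), 720 and 2001 (OPCs), and 239 and 2820 (all other P5 cells). Tmem212 turned to a log2 ratio of 0.92 in those 23 members, a small pool, and against Hopx cells Gabbr2 (0.14), Luzp2 (0.86) and Ccdc153 (1.36) turned. The Hopx pool is small too, at 935902 UMIs. Gabbr2 stood at 4.27 CPM and Ccdc153 at 2.14 CPM there, so their turned ratios rest on few UMIs. The cause of the turned ratios was not tested. Of 377 ratios recomputed for the 24 named genes, 267 moved within counting error, 106 beyond it and 4 turned. Leaving out cycling cells, using astrocytes outside cluster 3 and holding both groups to an astrocyte sum of at least 5 together with the members' other conditions (2 choices changed at once, 151 and 555 genes) were chosen after seeing the data, and kept the counts within 1.5 times.

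Accessibility summed over the panel was 100.2, 36.2 and 29.6 at P5, 12 weeks and 24 weeks, 138, 58.1 and 44.0 over the gene and 2 kb upstream, and 27.9 at 24 weeks in barcodes with over 3000 and under 100000 counts. No paired analysis was possible because each age is 1 library and the samples with shared replicate numbers are cultured cells that were not used here. The design has no replicate to leave out. Depth limits the adult values, since 3 UMIs are 2.45 CPM in 12-week cells with an astrocyte sum of 5 or more.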
